A study of Mus musculus with 12 samples.

Results

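Secreted proteases and their inhibitors were followed through 9 genes, chosen by name from the 55376 symbols of the count table. Plau and Plat encode the urokinase-type and tissue-type plasminogen activators, and Plaur encodes the urokinase receptor. Timp1, Timp2 and Timp3 encode tissue inhibitors of metalloproteinases. Mmp2, Mmp12 and Mmp14 encode matrix metalloproteinases. Their RNA was measured by RNA-Seq in live O1+ CD45- oligodendrocytes sorted by FACS from C57BL/6 mouse brains at postnatal day 40, where O1 is a surface lipid of differentiated oligodendrocytes and CD45 marks leukocytes. There were 4 samples, each from 2 brains, of each of 3 genotypes. WT mice were the controls. Cnp-Cre Jab1fl/fl mice carry Cre under control of the oligodendrocyte gene Cnp, active in late progenitors and in oligodendrocytes, and 2 floxed alleles of Jab1, a subunit of the COP9 signalosome that is listed under the symbol Cops5. Cnp-Cre Jab1fl/fl p21CIP1-/- mice, or double mutants, additionally lack p21CIP1 (Cdkn1a) in every cell of the body, through a knockout line that, per the study's methods, came from another strain than the other lines and was backcrossed. All mutant samples carry the Cre transgene, which the comparisons with WT do not separate from the loss of Jab1, and no samples that lack p21CIP1 alone were analysed here. The cells were freed from tissue with a collagenase.

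Plasminogen activators cut the circulating protein plasminogen into plasmin, a broad protease that degrades fibrin and matrix proteins and can activate some metalloproteinases. The urokinase receptor holds urokinase at the cell surface. The membrane-bound enzyme MMP14 processes pro-MMP2 in a complex with TIMP2, and TIMPs block the active site of metalloproteinases. In the brain these enzymes are known for matrix turnover around vessels, migration of microglia and myelin repair. Several members also belong to the secretory phenotype of senescent cells, the subject of the comparison between Jab1 mutants and WT in the study, and the double mutants address whether p21CIP1 is needed for it.

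Plau lies on chromosome 14 of GRCm38 from 20836660 to 20843385, Plat on chromosome 8 from 22757727 to 22782844, and Plaur on chromosome 7 from 24462484 to 24475968, all on the forward strand. Timp1 is on chromosome X from 20870166 to 20874735 and Timp3 on chromosome 10 from 86300372 to 86349506, both forward. Each lies within the span of a synapsin gene on the opposite strand, Syn1 and Syn3, with 0 shared exon bases. Timp2 is on the reverse strand of chromosome 11 from 118301069 to 118355740 and shares no exon base with its neighbour Cep295nl. Mmp2 spans chromosome 8 from 92827291 to 92853420, Mmp14 chromosome 14 from 54431612 to 54445364, and Mmp12 chromosome 9 from 7344381 to 7369499, all forward. Of the merged exons of Mmp12, 157 bases (3.94%) are shared with Mmp1b on the opposite strand, which had 0 counts in all 12 samples.

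Promoter windows of RefSeq (build GRCm38.p6) were found for 6 of the 9 genes, and the bases before the start are printed here for Plaur and Timp1, the members called between genotypes, and for the second of the 2 starts of Mmp12, a member counted almost solely in 1 sample. Capitals mark the AP-1 motif TGANTCA, which reads the same on both strands apart from its middle base, and the PU.1-type motif GAGGAAG, both searched on both strands and without overlap between them here.
Plaur, chr7:24462233-24462482, forward strand: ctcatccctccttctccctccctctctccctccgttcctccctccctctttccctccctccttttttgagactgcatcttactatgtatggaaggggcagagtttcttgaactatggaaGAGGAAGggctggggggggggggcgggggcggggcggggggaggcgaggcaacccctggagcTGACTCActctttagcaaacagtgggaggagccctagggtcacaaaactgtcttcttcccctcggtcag
Timp1, chrX:20869916-20870165, forward strand: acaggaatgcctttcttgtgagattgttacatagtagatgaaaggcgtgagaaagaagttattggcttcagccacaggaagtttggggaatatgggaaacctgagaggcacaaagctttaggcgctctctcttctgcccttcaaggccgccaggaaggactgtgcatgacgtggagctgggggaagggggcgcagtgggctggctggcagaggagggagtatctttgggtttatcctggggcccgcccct
Mmp12, chr9:7347124-7347373, forward strand: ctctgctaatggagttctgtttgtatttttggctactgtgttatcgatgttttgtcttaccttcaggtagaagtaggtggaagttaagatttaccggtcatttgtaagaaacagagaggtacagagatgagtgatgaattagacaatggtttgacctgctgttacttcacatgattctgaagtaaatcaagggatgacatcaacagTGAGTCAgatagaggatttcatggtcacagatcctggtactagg
In Plaur, TGACTCA stands 69 bases and GAGGAAG 131 bases before the start. In Mmp12, TGAGTCA stands 44 bases before the second start, and the window of the first start, which is not printed, holds GAGGAAG on the reverse strand 87 bases before it. The windows of Timp1, Timp2, Timp3 and Mmp14 hold neither motif. Of the 32851 promoter windows of 300 bases in the reference (250 before and 50 after a start), 7.81% hold TGANTCA and 13.6% hold GAGGAAG. These matches describe letters and not binding.

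Total counts were 61485556 to 153495112 per sample, and 99.48% to 99.82% of them fell in the 17716 genes tested, those with a level of 1 CPM (counts scaled to library size) or more in at least 4 of the 12 samples. Of the 9 members 8 passed this filter, and Mmp12 did not. Levels are given in CPM, scaled by TMM factors, and genes were compared with edgeR's quasi-likelihood test and Benjamini-Hochberg adjustment over all genes tested. In WT the targeted gene Cops5 had 103 ± 39.9 CPM (SD, n = 4), against 67.1 ± 18.1 CPM in Cnp-Cre Jab1fl/fl and 58.8 ± 21.6 CPM in double mutants, with a log2 fold change of -0.62 in Cnp-Cre Jab1fl/fl (adjusted p = 0.349, edgeR). Cdkn1a was at 41.7 ± 31.5 CPM in WT and 454 ± 124 CPM in Cnp-Cre Jab1fl/fl, and was still counted in double mutants, at 88.7 ± 18.0 CPM, with a log2 fold change of 1.08 against WT (unadjusted p = 0.0474, adjusted p = 0.394, edgeR). Counts per gene do not separate deleted exons from others. Marker genes of mature oligodendrocytes summed to 45280 to 106000 CPM in WT, 9027 to 35250 CPM in Cnp-Cre Jab1fl/fl and 16930 to 52880 CPM in double mutants, so the sorted cell type was present in every sample. The same samples held markers of other cells. In bulk samples, fewer cells of a type and less RNA per cell cannot be told apart.

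Levels per length of transcript, as CPM per kilobase of merged exons (RPKM), differed widely between the members. In WT, Timp3 was at 83.9, Timp2 at 76.5 and Plat at 74.3 RPKM, and these neighbours in the order overlapped between samples. Timp2 and Timp3 were above 95.16% and 95.70% of the tested genes in mean RPKM, and Plat above 94.97%. Mmp14 followed at 29.9 RPKM, with every sample below every sample of Plat. Mmp2 (1.70 RPKM), Plaur (0.881 RPKM) and Plau (0.184 RPKM) came next, overlapping in that order. Below them, without overlap, Timp1 was at 0.00462 RPKM, from 2 counts in 4 samples, and Mmp12 at 0. In Cnp-Cre Jab1fl/fl the order was Plat (98.0), Timp2 (57.0), Timp3 (55.3), Mmp14 (20.6), Plaur (6.64), Mmp2 (4.38), Timp1 (4.37), Plau (1.49) and Mmp12 (0.603 RPKM), and among neighbours only Timp3 and Mmp14 did not overlap. In double mutants Plat was at 137, Timp2 at 82.4, Timp3 at 62.5, Mmp14 at 32.0, Plaur at 12.1, Mmp2 at 3.85, Timp1 at 2.39, Plau at 0.160 and Mmp12 at 0 RPKM. There the neighbours overlapped down to Timp1, and Timp1, Plau and Mmp12 were separated from each other.

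**Figure D1:**
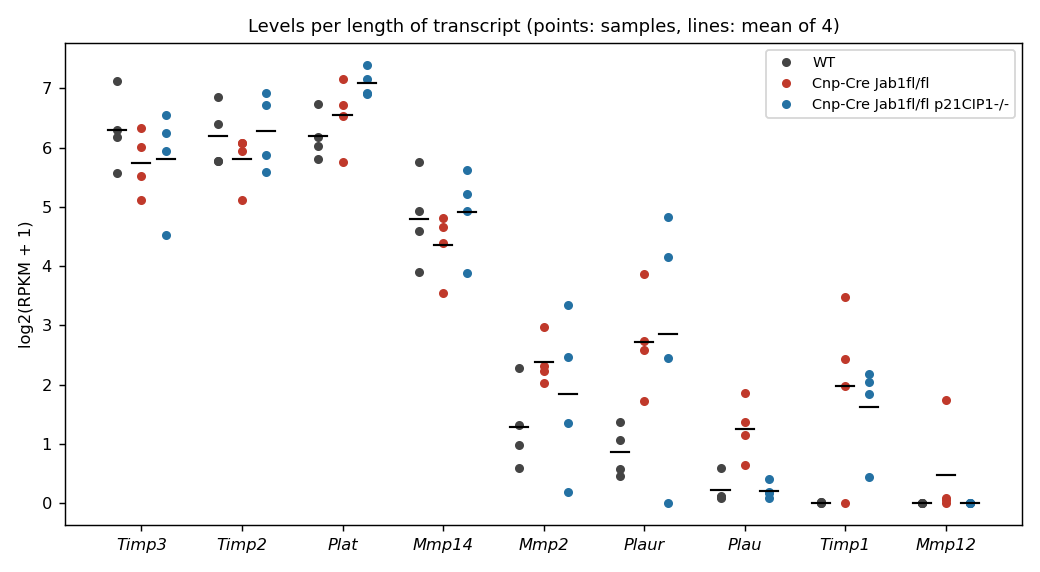
Levels of the 9 genes on a log2(RPKM + 1) axis, one point per sample and a line at the mean of 4, by genotype. Timp3, Timp2, Plat and Mmp14 have the highest means in all genotypes, while Timp1 and Mmp12 are at or near 0 in WT.

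Between the sorted samples of Cnp-Cre Jab1fl/fl and WT, Timp1 and Plaur were called higher, and no member was called lower. The 2 members called higher are of 8 tested, where 5.19% of all genes tested were higher and 2.46% were lower. The median log2 fold change of the 8 members was 0.88, against 0.02 over all genes tested, with 5 members positive and 3 negative. This median includes Timp1 and Plau, which passed the filter only or mainly through mutant samples, where they are high. It is therefore no result for the members as a set. At an unadjusted p below 0.05, 3 were higher and 0 lower, where 13.2% and 9.30% of all genes were. With DESeq2, 3 members were higher (Timp1, Plaur and Plau) and 0 lower, where 9.52% and 5.66% of all genes were. The samples of Plaur and Plau did not overlap between these groups and were higher in mutants, as for 9.90% of all genes, and no member was lower without overlap, as 7.24% were. With limma-voom and sample quality weights, 2 members were higher (Plaur and Mmp2) and 0 lower, and Timp1 was not called. There, 1307 of the 17716 genes tested were higher and 614 lower.

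Plaur, the urokinase receptor, was at 0.564, 2.385, 1.63 and 0.728 CPM in WT replicates 1, 3, 5 and 6, and at 20.5, 7.495, 8.57 and 3.44 CPM in Cnp-Cre Jab1fl/fl replicates 1 to 4. The lowest Cnp-Cre Jab1fl/fl sample exceeded the highest WT sample. On the log2 scale the rise was 2.91 (standard error, SE, 0.79, adjusted p = 0.0467, edgeR), or 7.53-fold. The call was close to the threshold, and it was lost without any 1 of the WT samples or of Cnp-Cre Jab1fl/fl replicates 1 and 3, with adjusted p of 0.0617 to 0.155. It was also lost with no filter (0.0931), with all 12 samples in 1 fit (0.226) and with a replicate block (0.355), and the log2 fold change was 2.29 without Cnp-Cre Jab1fl/fl replicate 1. In double mutants Plaur was at 0, 6.68, 41.1 and 25.4 CPM in replicates 1, 2, 3 and 5. The sample at 0 counts allows up to 0.0321 CPM, which is 3 counts, and the 3 others exceeded every WT sample. Double mutants had a log2 fold change of 3.78 against WT (SE 1.49, unadjusted p = 0.0280, adjusted p = 0.330, edgeR). Set against Cnp-Cre Jab1fl/fl it was 0.87 (SE 1.34, adjusted p = 0.9999, edgeR), and 0.12 to 1.51 with any sample left out, while limma-voom turned it to -1.68 and the fit with a replicate block to -0.71. Without double mutant replicate 1 the difference from WT passed the threshold (adjusted p = 0.0377).

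Timp1, a secreted inhibitor, had 0, 1, 1 and 0 counts in WT replicates 1, 3, 5 and 6. In Cnp-Cre Jab1fl/fl replicates 1 to 4 it had 307, 310, 611 and 0 counts, which are 3.92, 2.59, 9.02 and 0 CPM. Thus 3 of the 4 mutant samples were far above WT, while replicate 4 had no count. The edgeR log2 fold change was 9.47 (SE 2.11, adjusted p = 0.0220), a value that depends on the prior count for a gene near 0 in WT. Timp1 had passed the filter only through mutant samples, where it is high. These were Cnp-Cre Jab1fl/fl replicates 1 to 3 and double mutant replicates 2, 3 and 5. The ratio of scaled counts was 826, with a 95% exact Clopper-Pearson interval of 228 to 6825 for counting error only. The call was lost with limma-voom (adjusted p = 0.230), with a replicate block (0.0705) and without any 1 of the WT samples or Cnp-Cre Jab1fl/fl replicate 3 (0.0535 to 0.0692), and the log2 fold change was 8.64 without that replicate. Double mutants had 30, 347, 321 and 218 counts of Timp1, or 0.321, 2.76, 3.14 and 2.29 CPM in replicates 1, 2, 3 and 5, all above all WT samples. The ratio to WT was 502 (interval 139 to 4154). The log2 fold change was 8.62 (SE 1.58, adjusted p = 0.0736, edgeR), with an adjusted p of 0.0279 without double mutant replicate 1. The difference between double mutants and Cnp-Cre Jab1fl/fl, -0.87 (SE 1.46, adjusted p = 0.9999, edgeR), was within the spread and turned to 0.55 with limma-voom.

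**Figure D2:**
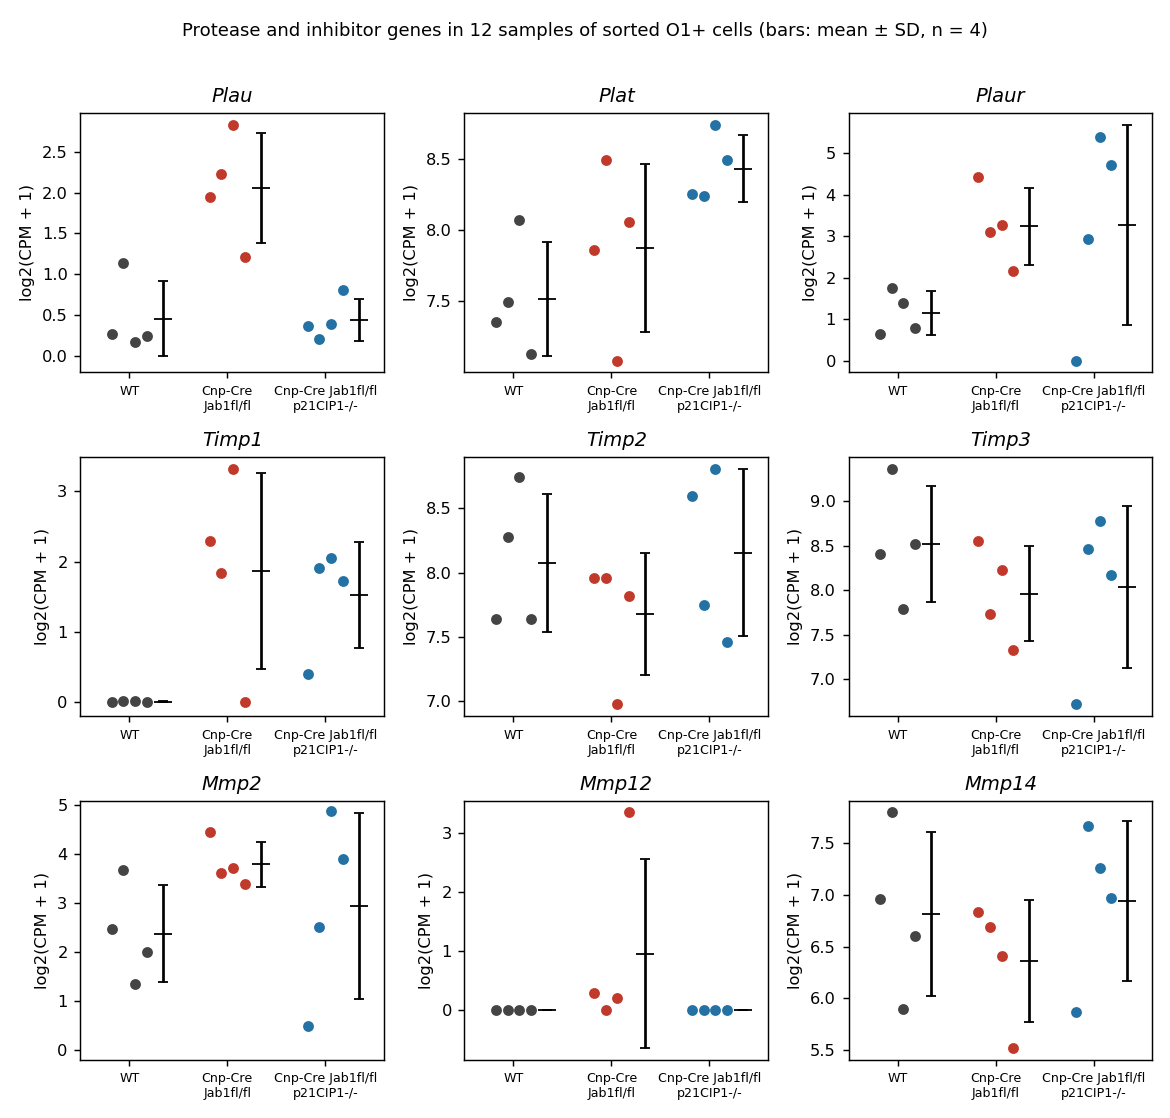
Each panel plots 1 gene on a log2(CPM + 1) axis, with 1 point per sample in replicate order and the mean ± SD of the log2 values (n = 4) beside each genotype. Plaur and Plau in Cnp-Cre Jab1fl/fl lie above WT in every sample, Timp1 does so in 3 of 4 samples, and the counts of Mmp12 come almost entirely from Cnp-Cre Jab1fl/fl replicate 4.

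Plau, the urokinase-type activator, was at 0.209, 1.199, 0.129 and 0.185 CPM in WT, at 2.85, 3.69, 6.11 and 1.32 CPM in Cnp-Cre Jab1fl/fl, and at 0.289, 0.151, 0.313 and 0.745 CPM in double mutants. Cnp-Cre Jab1fl/fl samples were above all others, although the gap between 1.322 and 1.199 CPM closed when TMM factors were taken from all genes (1.246 against 1.248 CPM). The log2 fold change against WT was 3.01 (SE 1.09, unadjusted p = 0.0180), with an adjusted p of 0.125 in edgeR and 0.0321 in DESeq2. It was 2.599 to 4.29 with a sample left out, the highest value being without WT replicate 3 (adjusted p of 0.0566 to 0.260 over these fits). Between double mutants and Cnp-Cre Jab1fl/fl it was -3.22 (SE 1.09, unadjusted p = 0.0137, adjusted p = 0.902, edgeR), a 9.30-fold lower mean, and all samples were below those of Cnp-Cre Jab1fl/fl as for 1.99% of genes tested. Plau was the only member with an unadjusted p below 0.05 in this comparison. It had passed the filter through the 4 Cnp-Cre Jab1fl/fl samples, where it is high, and WT replicate 3, and the other 7 samples were below 1 CPM. The adjusted p stayed between 0.185 and 1 over 15 other settings. Between double mutants and WT the estimate was -0.21 (SE 1.25, adjusted p = 0.965, edgeR).

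Plat, the tissue-type activator, was higher in every double mutant sample than in every WT sample, as were 4.52% of genes tested. It was at 163, 180, 268 and 139 CPM in WT, at 231, 358, 135 and 265 CPM in Cnp-Cre Jab1fl/fl and at 304, 301, 425 and 358 CPM in double mutants. The log2 fold change of double mutants against WT was 0.88 (SE 0.30, unadjusted p = 0.0147, adjusted p = 0.265, edgeR), or 1.84-fold. That of Cnp-Cre Jab1fl/fl against WT was 0.40 (SE 0.35, adjusted p = 0.555), and its samples overlapped both other groups.

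Timp2 and Timp3 were not called in any comparison. Timp2 ranged from 199 to 428 CPM in WT, 125 to 248 CPM in Cnp-Cre Jab1fl/fl and 175 to 447 CPM in double mutants. Timp3, which binds to the matrix, ranged from 220 to 658, 160 to 374 and 104 to 437 CPM in the same order. Against WT, Timp2 had log2 fold changes of -0.42 (SE 0.35) in Cnp-Cre Jab1fl/fl and 0.09 (0.40) in double mutants, and Timp3 of -0.60 (0.39) and -0.43 (0.47), with adjusted p of 0.413 to 0.950 in edgeR. Between double mutants and Cnp-Cre Jab1fl/fl, they were 0.53 (0.38) and 0.18 (0.44).

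Mmp14, the membrane-bound activator of MMP2, averaged 125 ± 69.6 CPM in WT (SD, n = 4), 86.1 ± 30.0 CPM in Cnp-Cre Jab1fl/fl and 134 ± 60.7 CPM in double mutants. Its samples overlapped between all genotypes, and its log2 fold changes were -0.54 (SE 0.42) and 0.09 (0.47) against WT and 0.64 (0.42) between the mutants, with adjusted p of 0.507 to 0.996 in edgeR. Mmp2, a gelatinase, was at 4.58, 11.8, 1.56 and 3.01 CPM in WT, at 21.01, 11.3, 12.1 and 9.47 CPM in Cnp-Cre Jab1fl/fl, and at 0.407, 4.73, 28.3 and 13.9 CPM in double mutants. Only WT replicate 3 reached the range of Cnp-Cre Jab1fl/fl, and double mutants spanned 69.6-fold from lowest to highest. Cnp-Cre Jab1fl/fl differed from WT by 1.36 on the log2 scale (SE 0.65, adjusted p = 0.246, edgeR), with an adjusted p of 0.0421 in limma-voom, and by 2.13 without WT replicate 3. That between double mutants and WT was 1.18 (SE 1.02, adjusted p = 0.681, edgeR), with 0.29 without double mutant replicate 3 and 1.95 without WT replicate 3.

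Mmp12, a macrophage elastase, had 0 counts in all WT and double mutant samples and 17, 0, 10 and 685 counts in Cnp-Cre Jab1fl/fl replicates 1 to 4. Thus 685 of 712 counts came from 1 sample, at 9.24 CPM against 0.217 CPM or less in the others. The summed level was at least 259-fold higher than in WT by the lower limit of a 95% exact Clopper-Pearson interval, for counting error only. With no filter on low counts, edgeR gave an adjusted p of 0.1003 against WT and 0.530 between the mutants. With Mmp12 at the bound of 259-fold, the median log2 fold change of the 9 members in Cnp-Cre Jab1fl/fl against WT would be that of Mmp2, 1.36. That median would rest on 1 sample for Mmp12 and set a ratio of counts beside edgeR fold changes. It is therefore no result for the members as a set.

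Markers of other cell types moved with the genotypes. Of 20 microglia markers 18 rose in Cnp-Cre Jab1fl/fl, and their summed level was 149 to 366 CPM in WT, 1359 to 3418 CPM in Cnp-Cre Jab1fl/fl and 543 to 23380 CPM in double mutants, with none at 0 in all samples of a genotype. In double mutants against WT edgeR called 0 of them and DESeq2 13. The sort was gated against CD45+ cells. Per the study's methods, reanalysis found no overt CD45+ contamination, but the purity of O1+ cells was incomplete. The authors could not fully exclude that a few other cells remained. Double mutant replicate 3, with the highest microglia sum, also had the highest Plaur (41.1 CPM) and Mmp2 (28.3 CPM) of all samples. Double mutant replicate 1, with the lowest microglia sum of the mutant samples, had no count of Plaur and the lowest Mmp2 (0.407 CPM). It also had the lowest endothelial (456 CPM), mural (303 CPM) and fibroblast (33.2 CPM) sums of the mutant samples. WT replicate 3, with the lowest microglia sum of all samples (149 CPM), had the highest Plaur (2.385 CPM) and Mmp2 (11.8 CPM) of WT. Its fibroblast sum (144 CPM) was the highest of WT, while that of double mutant replicate 3 (257 CPM) was not the highest of the mutants. Cnp-Cre Jab1fl/fl replicate 4, the sample with Mmp12, had the highest microglia sum of its genotype, with its lowest Plaur (3.44 CPM) and Mmp2 (9.47 CPM). Replicate 1 of that genotype had nearly the same microglia sum, 3376 against 3418 CPM, and 0.217 CPM of Mmp12. The part of microglia or of these other cell types in the results for Plaur, Mmp2 and Mmp12 was not tested.

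In the comparison of double mutants with WT, 0 members were called by edgeR, where 0.175% of all genes were higher and 0.0169% lower. At an unadjusted p below 0.05 there were 3 members (Timp1, Plat and Plaur), all higher, as were 7.82% of genes tested, while 4.57% were lower. DESeq2 called 2 members (Timp1 and Plaur), where 3.74% of all genes were higher and 1.12% lower. With limma-voom 0 members were called, where 38 of the 17716 genes tested were higher and 9 lower. Timp1 and Plat were higher without overlap, as 4.52% of genes were, and 0 members were lower, as 3.58% were. Between double mutants and Cnp-Cre Jab1fl/fl, 0 members were called by edgeR, DESeq2 or limma-voom, where edgeR called 0% of all genes, and 1 member (Plau) was lower at an unadjusted p below 0.05, as were 3.25% of genes tested, while 1.75% were higher. DESeq2 called 0.113% of all genes higher and 0.378% lower, and limma-voom called 0 genes higher and 1 lower. Without overlap between samples, 1 member (Plau) was lower, as 1.99% of genes were, and 0 were higher, as 1.22% were. The 3 comparisons share their samples in pairs and are not independent.

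**Figure D3:**
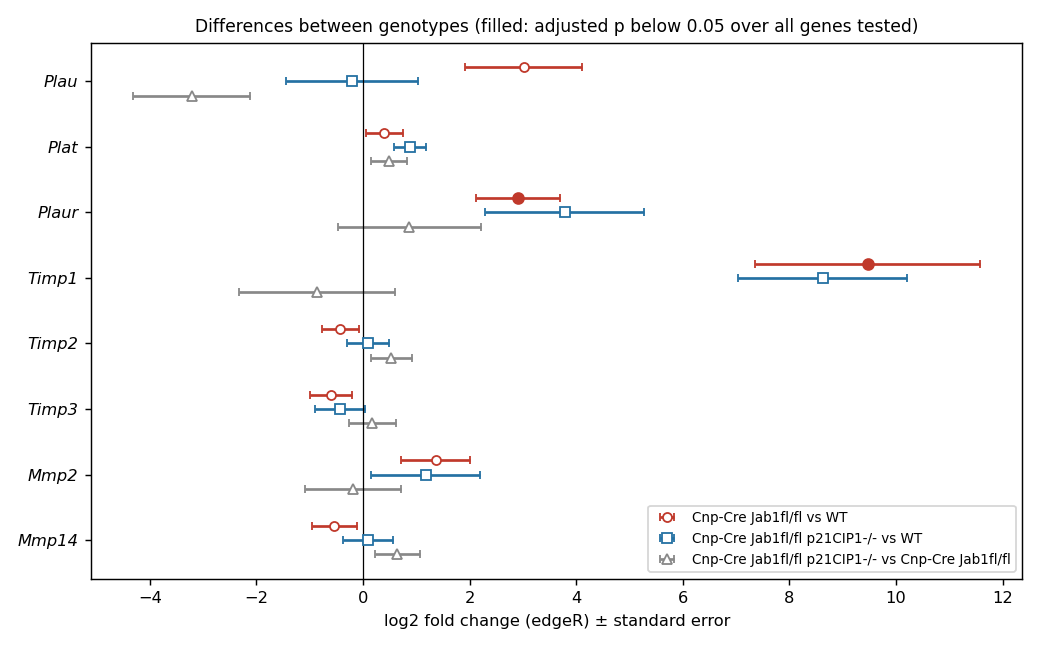
Log2 fold changes of the 8 tested genes with their standard errors (horizontal axis) in the 3 comparisons, with filled symbols for adjusted p below 0.05. Timp1 (9.47) and Plaur (2.91) in Cnp-Cre Jab1fl/fl against WT are filled, and Plau, at 3.01 there and -3.22 in double mutants against Cnp-Cre Jab1fl/fl, is open in both. These comparisons share the Cnp-Cre Jab1fl/fl samples.

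Timp1 and Plaur kept positive log2 fold changes in Cnp-Cre Jab1fl/fl against WT in all 15 other settings, while their calls did not hold in all. Timp1 passed the threshold in 8 of the 15 (adjusted p of 2.76e-06 to 0.230) and Plaur in 6 of 15 (0.00160 to 0.355), while Plau and Mmp2 passed in 1 of 15 each.

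**Figure D4:**
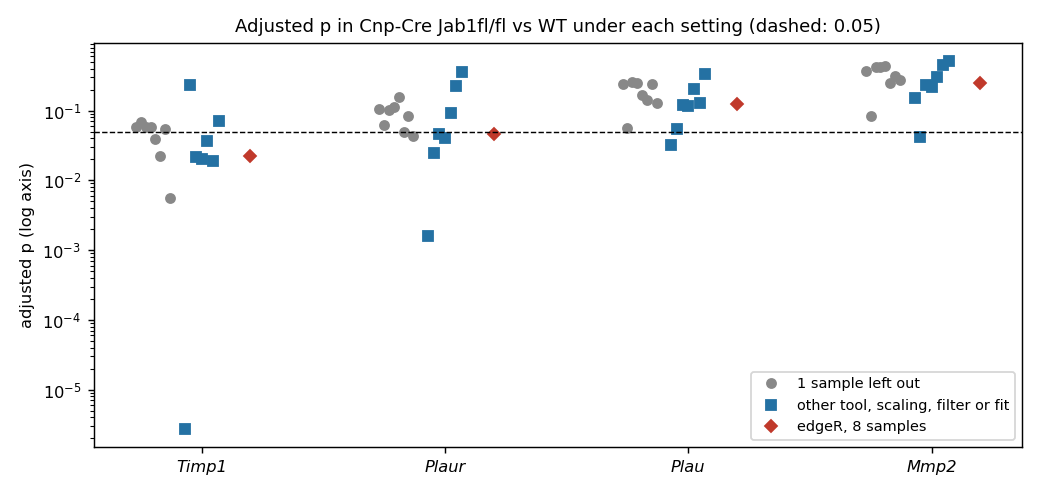
Adjusted p (log axis) of 4 genes in Cnp-Cre Jab1fl/fl against WT, from edgeR on 8 samples (diamonds), other tools, scalings, filters or fits (squares) and fits with 1 sample left out (circles), with a dashed line at 0.05. Symbols of Timp1 and Plaur lie on both sides of the line, and those of Plau and Mmp2 lie above it except for 1 square each.

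Among 11 other genes of the plasminogen system 7 were tested, and 1 rose in Cnp-Cre Jab1fl/fl while 0 fell. There, 3 were higher and 1 lower at an unadjusted p below 0.05, and 3 were higher and 1 lower without overlap. DESeq2 called 2 higher and 1 lower, and limma-voom 1 higher and 1 lower. Anxa2, a surface-binding partner of plasminogen and its tissue-type activator, averaged 21.3 ± 10.04 CPM in WT (SD, n = 4), 86.2 ± 30.9 CPM in Cnp-Cre Jab1fl/fl and 74.0 ± 23.6 CPM in double mutants, with a log2 fold change of 2.01 in Cnp-Cre Jab1fl/fl against WT (SE 0.43, adjusted p = 0.0172, edgeR). Plg, which encodes plasminogen itself, had 0 counts in all 12 samples.

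Of 20 other metalloproteinases, 9 were tested, 6 had 0 counts in every sample, and 0 were called by edgeR in any comparison. At an unadjusted p below 0.05 there were 3 in Cnp-Cre Jab1fl/fl against WT, 2 higher and 1 lower. DESeq2 called 1 of them lower there and limma-voom 0. Of 4 other metalloproteinase inhibitors 3 were tested, and 0 were called by edgeR, DESeq2 or limma-voom or had an unadjusted p below 0.05. Of 25 ADAM and ADAMTS proteases 19 were tested, and 2 fell in Cnp-Cre Jab1fl/fl. There, 0 were higher and 4 lower at an unadjusted p below 0.05, and 2 were lower without overlap. DESeq2 called 2 lower, and limma-voom 1 higher and 2 lower. Adamts20, which cleaves versican, went from 57.1 ± 12.4 CPM (SD, n = 4) in WT to 12.5 ± 7.95 CPM, a log2 fold change of -2.20 (SE 0.46, adjusted p = 0.0172, edgeR), with all mutant samples below all WT samples. Adamts4, an aggrecanase known in oligodendrocytes, went from 293 ± 189 CPM in WT to 60.0 ± 48.3 CPM, a log2 fold change of -2.29 (SE 0.60, adjusted p = 0.0422, edgeR). Its samples overlapped, with a highest mutant value of 131.5 CPM and a lowest WT value of 130.1 CPM. In the other comparisons edgeR and limma-voom called 0 genes of the 4 lists, and DESeq2 called 1, a plasminogen system gene in double mutants against WT. At an unadjusted p below 0.05 there were 2 higher plasminogen system genes and 2 lower ADAM and ADAMTS genes in double mutants against WT, and 1 lower ADAM or ADAMTS gene between the mutants.

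Of 8 endothelial markers 4 rose in Cnp-Cre Jab1fl/fl, with sums of 216 to 475 CPM in WT, 558 to 3845 CPM in Cnp-Cre Jab1fl/fl and 456 to 3117 CPM in double mutants. Of 8 mural cell markers 4 rose, with sums of 286 to 532, 982 to 1755 and 303 to 1682 CPM. Of 6 choroid plexus markers 2 rose, with sums of 297 to 4106, 6503 to 24670 and 5432 to 24090 CPM. The 6 fibroblast markers had sums of 26.2 to 144, 99.7 to 422 and 33.2 to 347 CPM, with 0 called by edgeR and 3 by DESeq2. In Cnp-Cre Jab1fl/fl, DESeq2 called 8 endothelial, 4 mural and 4 choroid plexus markers higher, and limma-voom 7, 4 and 4. In double mutants against WT, DESeq2 called 5, 3 and 2 of them higher, and edgeR and limma-voom 0. Of 10 mature oligodendrocyte markers 7 fell in Cnp-Cre Jab1fl/fl, and the lowest sum, in its replicate 3, stood beside its highest Timp1 (9.02 CPM) and Plau (6.11 CPM) and its lowest Timp2 (125 CPM) and Plat (135 CPM). The next lowest sum, 18590 CPM in replicate 4, stood beside 0 counts of Timp1, the lowest Plau of the genotype (1.32 CPM), 225 CPM of Timp2 and 265 CPM of Plat. Replicate 3 also had the genotype's highest choroid plexus (24670 CPM), border macrophage (13.7 CPM) and progenitor (714 CPM) sums. Replicate 4 had its next highest choroid plexus (16060 CPM) and border macrophage (12.9 CPM) sums. Of 6 progenitor markers 1 rose, of 4 tested border macrophage markers 1 rose, and 0 of 9 astrocyte, 8 neuron and 1 tested monocyte or neutrophil markers were called by edgeR. The sums of astrocyte markers were 5541 to 13350 CPM in WT, 3524 to 8616 CPM in Cnp-Cre Jab1fl/fl and 4020 to 11080 CPM in double mutants. Sums of neuron markers were 148 to 261, 240 to 759 and 231 to 745 CPM, and those of progenitors 372 to 1023, 390 to 714 and 313 to 713 CPM. Border macrophage markers summed to 3.85 to 7.71, 4.23 to 13.7 and 6.81 to 58.6 CPM. Of these 7 markers, 2, 1 and 0 were at 0 in all samples of the genotype, in the same order. Monocyte and neutrophil markers summed to 0.625 to 2.14, 1.99 to 17.4 and 2.30 to 103 CPM. Of these 6 markers, 1, 2 and 0 were at 0 in all samples of the genotype. The part of these cells in the results for Timp1 and Plau was not tested either.

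**Figure D5:**
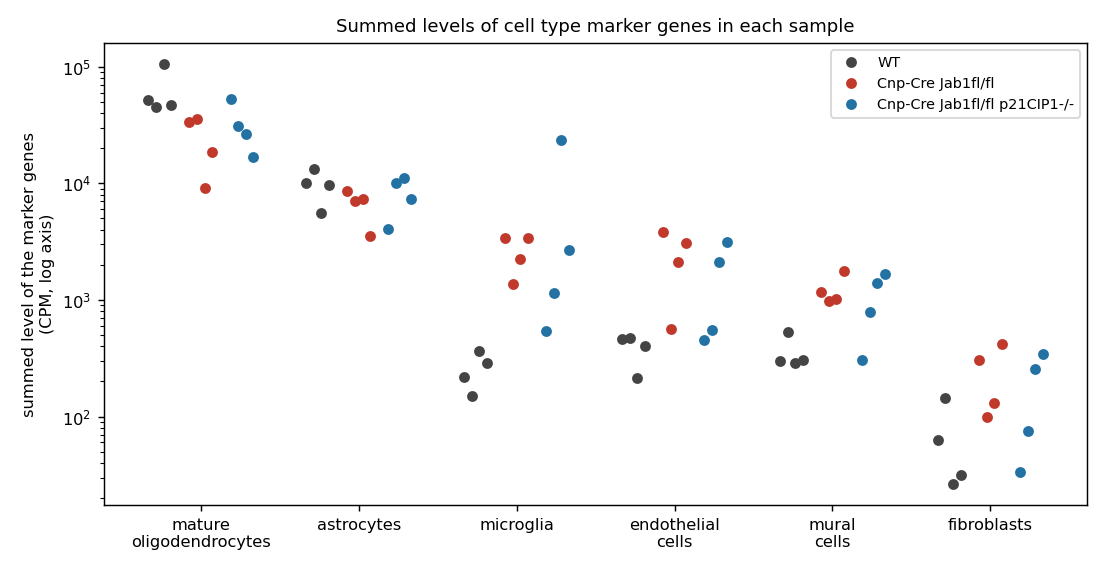
Summed level of the marker genes of 6 cell types in each sample (CPM, log axis), by genotype. The microglia sum of every mutant sample (543 CPM or more) is above that of every WT sample (366 CPM or less), and double mutant replicate 3 reaches 23380 CPM.

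Across the 12 samples, which share their libraries and span 3 genotypes, the members fell into patterns, described by Pearson's r of log2(CPM + 1) over 17715 other tested genes. Plaur was most like Igsf6 (r = 0.952), Myd88 (0.943) and Sdcbp (0.940). Mmp2 was most like Stard8 (0.945), St6galnac4 (0.944) and Il4ra (0.934), and Mmp2 and Plaur had the highest r of all pairs of members (0.858). Plau was most like Gm15736 (0.940), Prdm1 (0.927) and Lilr4b (0.925). Timp1 was most like Prps1l1 (0.905), F830016B08Rik (0.903) and Gm28530 (0.902). Timp3 was most like S1pr1 (0.963), Frmpd1 (0.956) and Tmem47 (0.936), and Mmp14 like Fkbp10 (0.954), Plcd1 (0.940) and Bcar3 (0.935), while Mmp14 and Timp3 had an r of 0.836 with each other. Plat was most like Xbp1 (0.943), Eif5a (0.930) and Ccm2 (0.928), and Timp2 like Coro1b (0.928), Dph2 (0.884) and Lad1 (0.881).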

How the data were processed

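RNA-Seq of 12 samples was analysed, with genotypes taken from the sample labels. The authors made the deposited table of raw counts per gene symbol from SMART-Seq v4 libraries, and per the labels they used Trimmomatic 0.32, STAR 2.5.3a, GRCm38 and featureCounts. Strand and multi-mapping settings are not given in the sources used here. GENCODE M21 gave positions and exon lengths, and 54402 symbols (98.2%) matched. No deposited column was left out.

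From the counts, CPM values with TMM factors from the tested genes were computed here. Genotypes were tested pairwise on 8 samples with edgeR 4.0.16 in R 4.3.3 (quasi-likelihood), with standard errors taken from the fold change and its F value. Alternatives were DESeq2 1.42.0, limma-voom with sample quality weights (limma 3.58.1), other scalings, no filter, all 12 samples, a replicate block and each sample left out. Scalings for overlap between samples were added after seeing the data. Nothing says that samples of a genotype were sorted or prepared on separate days, so p-values measure the spread between these samples. Samples of a genotype differed by far more than counting noise (smallest chi-square divided by its degrees of freedom, 211), and each was counted as a separate sample. Intervals and the floor of 3 counts cover counting error only. Scripts were tested on simulated counts. Members, lists and the naming rule (all members, other listed genes called, the 3 most similar genes, overlapping and targeted genes) were chosen with earlier results of these data known. Plg was named after its counts were seen. An item of these lists is not reported here.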

Additional observations from a re-analysis of the deposited data

Results flagged for a closer look

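Among 24 sets of 4 samples (a member in a genotype) 3 held a sample far from the others by the gap to its nearest neighbour as a share of the range, on log2(CPM + 1), past Dixon's 95% critical value, which chance passes in about 1 of 20 sets. Mmp12 in Cnp-Cre Jab1fl/fl replicate 4 had a ratio of 0.916, at 9.24 CPM. Timp2 in Cnp-Cre Jab1fl/fl replicate 3 had a ratio of 0.859, at 125 CPM against 225 to 248 CPM in the others. Plau in WT replicate 3 had a ratio of 0.897, at 1.199 CPM against 0.129 to 0.209 CPM in the others.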

How the results depend on the processing

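Members called higher in Cnp-Cre Jab1fl/fl against WT numbered 2, and 1 with no filter, 1 with all 12 samples in 1 fit, 0 with the replicate block and 0 to 2 with a sample left out. In double mutants against WT they numbered 0, and 2 with DESeq2 and 0 to 2 with a sample left out, 2 being without double mutant replicate 1. Members called lower, and those higher between the mutants, stayed at 0. Over all genes, 1354 calls between Cnp-Cre Jab1fl/fl and WT became 2689 with DESeq2, 79 with the block and 678 (without WT replicate 5) to 1863 (without Cnp-Cre Jab1fl/fl replicate 2) with a sample left out. The 34 calls between double mutants and WT became 862 with DESeq2, 21 with no filter, 164 with all 12 samples, 8 with the block and 1 (without double mutant replicate 2) to 274 (without replicate 1). Between the mutants, 0 calls (885 genes at an unadjusted p below 0.05) became 87 with DESeq2, 1 with limma-voom and 0 to 2 with a sample left out. The cause was not tested.

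Reversed log2 fold changes belonged to differences that were not called. Against WT in double mutants they were Mmp14 (-0.0623 with the block), Timp2 (-0.0319 with the block) and Plau (0.43 with limma-voom and 0.0431 with the block). Between the mutants they were Timp1 (0.55 with limma-voom), Timp3 (-0.0340 with limma-voom and -0.00036 with the block) and Plaur (-1.68 with limma-voom and -0.71 with the block). With a sample left out, double mutants against WT gave -0.15 to 0.52 for Mmp14, -0.13 to 0.39 for Timp2 and -0.79 to 1.09 for Plau, and the mutants against each other gave -1.07 to 0.23 for Mmp2 and -0.0564 to 0.47 for Timp3. No member reversed between Cnp-Cre Jab1fl/fl and WT under any alternative run.

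For samples with the same replicate number, correlations of their deviations from the group means were -0.188 to 0.0833. Of 8 such pairs over the 3 comparisons, in which some samples recur, 1 was the best correlation of its mutant sample in that comparison. So few pairs cannot show whether samples of the same number were sorted or prepared together. Depth limits the values of Timp1 and Mmp12 in WT, where 3 counts are 0.0194 to 0.0326 CPM.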
